A study of Homo sapiens with 2 samples.

Results

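The HOX genes encode homeodomain transcription factors that pattern the body axis of the embryo and, in blood, are known for keeping stem and progenitor cells immature. They are named by cluster (A to D) and by paralog group, and genes of the same group in different clusters are related copies. Low-numbered genes lie at the 3′ end of a cluster and act towards the head, and high-numbered genes lie at the 5′ end. Raised HOXA genes with their cofactor MEIS1 are a hallmark of several acute myeloid leukemias, whereas acute promyelocytic leukemia is known for low HOX expression. LDB1 is a nuclear adaptor with no DNA-binding domain of its own, and it links LIM-domain proteins such as LMO2 to factors that bind DNA.

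To describe where LDB1 was found at these genes, the deposited CUT&Tag peaks of NB4, a human acute promyelocytic leukemia line, were compared with the 39 protein-coding genes of GENCODE release 44 whose symbols are HOXA, HOXB, HOXC or HOXD followed by a number, of 20033 protein-coding genes in all. They were chosen by symbol, without use of any measured value, though earlier results of these data were known. CUT&Tag uses an antibody to bring a transposase to the protein of interest, so that DNA beside it is cut and sequenced. The series has 2 libraries with 1 library in each group. Both were made from NB4 cells. The cells probed with the LDB1 antibody are labelled as LDB1 overexpression, and those probed with IgG carry the label untreated. Antibody and treatment differ together and cannot be told apart. The values analysed here were 11046 peak positions and lengths (median 451 bp) from the LDB1 library. They carry no height, the read depth is unknown, and with no replicates no test was made. Intervals below are 95% intervals that cover counting error only.

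Results showed that 6 of the 39 HOX genes (15.4%, Wilson interval 7.25 to 29.7%) had a peak in the gene or within 3 kb of it. Of all protein-coding genes 19.7% had one. Such a count also depends on how long a gene is. Of other protein-coding genes between the shortest and the longest HOX gene (1677 and 56043 bp), 16.1% had a peak, and among those within 10% of the length of each member the mean share was 11.3%. With 10 kb on either side 8 of the 39 had a peak (20.5%, and 25.1% of protein-coding genes), and within 3 kb of the gene start 3 had one (7.69%, and 6.45%). All 3 background shares for the 3 kb rule lay inside the interval of the HOX genes, so as a family their share was close to the background. The genes with a peak were HOXB2, HOXB3, HOXB4, HOXB7, HOXB9 and HOXC13. These 6 genes shared 5 peaks, so they are not independent of each other.

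The clusters were unlike each other. In HOXB 5 of 10 genes had a peak, in HOXC 1 of 9, in HOXA 0 of 11 and in HOXD 0 of 9. Without HOXB, 1 of 29 genes (3.45%, 0.611 to 17.2%) had a peak. HOXB was left out after the counts had been seen, so a low share follows from that choice. The interval held the 16.1% and 11.3% of the length comparisons, and the 19.7% of all protein-coding genes lay above it. The difference between clusters was not tested, since neighbouring genes share peaks. By paralog group, 3 of 12 genes in groups 1 to 4 had a peak, 1 of 11 in groups 5 to 8 and 2 of 16 in groups 9 to 13. No paralog group had more than 1 member with a peak. HOXB4, known for expanding blood stem cells when raised, had one, while HOXA4, HOXC4 and HOXD4 did not. HOXB9 had one, while HOXA9, the member best known as a leukemia gene, HOXC9 and HOXD9 did not.

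**Figure D1:**
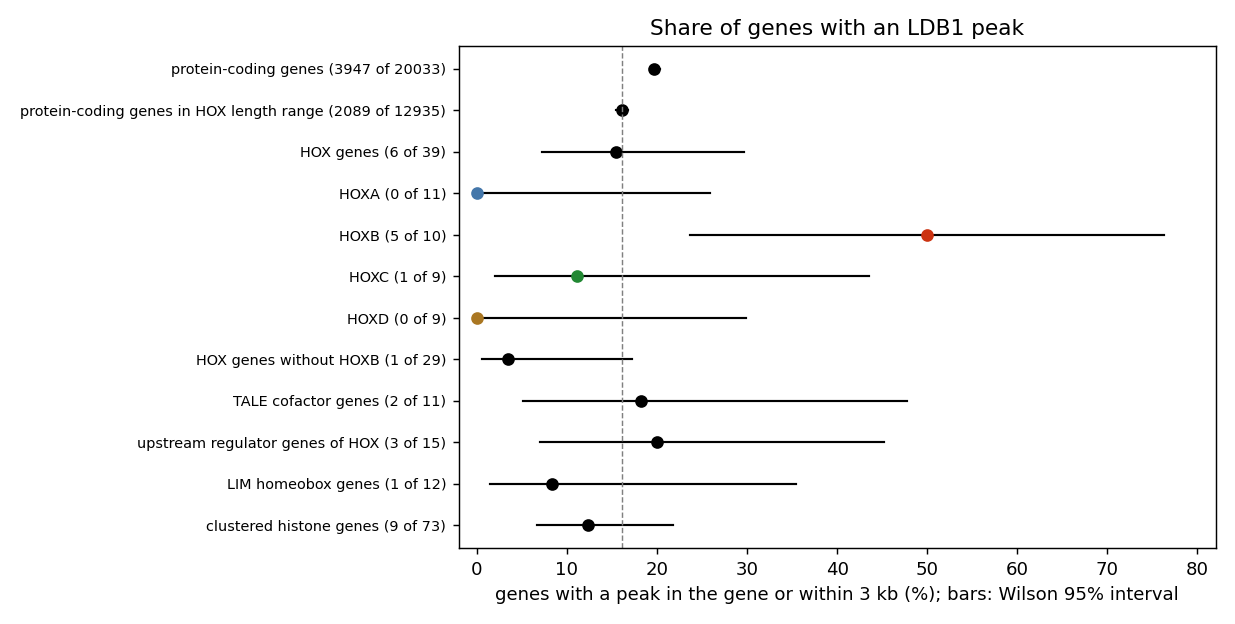
Share of genes with an LDB1 peak in the gene or within 3 kb (x axis, %), with Wilson 95% intervals as bars, for the HOX family, its 4 clusters and the gene lists set beside it. The dashed line marks the 16.1% of other protein-coding genes between the shortest and the longest HOX gene. The 11.3% of genes within 10% of each member's length is not drawn. HOXB lies at 50% and HOXA and HOXD lie at 0.

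The 5 peaks at HOX genes are shown by their central 200 bp, because every HOX gene called here rests on them. The sequences are the plus strand of hg38. Capitals mark the GATA site (AGATAA or AGATAG, and TGATAA or TGATAG), the RUNX site (TGTGGT or TGCGGT), the E-box CAGCTG and the CTG or CAG of a composite element, each on either strand.
Upstream of HOXB2, chr17:48546940-48547139: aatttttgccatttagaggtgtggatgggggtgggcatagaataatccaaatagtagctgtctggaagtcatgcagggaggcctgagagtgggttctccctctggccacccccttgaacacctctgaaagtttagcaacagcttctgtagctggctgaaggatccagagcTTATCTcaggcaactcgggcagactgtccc
Intron of HOXB3, chr17:48570475-48570674: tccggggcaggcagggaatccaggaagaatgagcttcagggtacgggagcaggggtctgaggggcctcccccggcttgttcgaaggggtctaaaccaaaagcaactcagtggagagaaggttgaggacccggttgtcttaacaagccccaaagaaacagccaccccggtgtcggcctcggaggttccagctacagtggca
Upstream of HOXB4, chr17:48578795-48578994: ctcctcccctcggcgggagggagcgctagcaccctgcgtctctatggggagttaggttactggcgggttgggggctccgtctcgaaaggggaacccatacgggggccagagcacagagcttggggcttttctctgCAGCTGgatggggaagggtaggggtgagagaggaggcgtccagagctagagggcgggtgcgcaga
Intron of HOXB9, chr17:48623614-48623813: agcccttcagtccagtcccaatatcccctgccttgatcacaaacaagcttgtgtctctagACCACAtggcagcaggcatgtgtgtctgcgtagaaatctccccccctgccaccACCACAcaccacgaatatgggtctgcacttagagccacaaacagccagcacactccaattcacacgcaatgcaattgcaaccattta
Downstream of HOXC13, chr12:53949035-53949234: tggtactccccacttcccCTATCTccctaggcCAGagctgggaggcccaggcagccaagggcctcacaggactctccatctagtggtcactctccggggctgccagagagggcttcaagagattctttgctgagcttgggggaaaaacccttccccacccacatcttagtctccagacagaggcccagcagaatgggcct
None of these windows overlapped an annotated untranslated region, and the central 31 bases of each peak occur once in hg38.

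The HOXB cluster spans 48528526 to 48728750 on chromosome 17, and its genes are on the minus strand. The peak nearest to its 3′ end lay at 48546852 to 48547229 (378 bp), between HOXB2 and HOXB3. Its midpoint was 1931 bp upstream of the start of HOXB2 (ENSG00000173917.11), a gene known from hindbrain patterning, and it ended 1641 bp before the 3′ end of HOXB3. It also lay in an intron of the antisense RNA gene HOXB-AS1. Its window above holds a GATA site 70 bp to the right of the midpoint and neither a RUNX site nor CAGCTG.

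HOXB3 (ENSG00000120093.12, 48548870 to 48604912), a regulator of progenitor growth, is the longest HOX gene and so had the widest window. It had the most peaks of the family, with 3. Of these, 2 lay inside the gene. The shorter, at 48570448 to 48570703, was 256 bp long and lay in intron 2 of the canonical transcript. Only 9.44% of all peaks in the list were shorter than this one. Its central window holds no site of the kinds marked in capitals. The other, at 48578747 to 48579044 (298 bp), lay in intron 1 of HOXB3 and also 545 bp upstream of the start of HOXB4 (ENSG00000182742.6). This was the peak closest to the start of any HOX gene. Its window holds a CAGCTG 35 bp to the right of the midpoint, 11 CpG dinucleotides and 65% G and C, compared with medians of 3 and 51.5% over all peaks.

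A peak at 48623477 to 48623951 (475 bp) lay in intron 1 of HOXB9 (ENSG00000170689.10), 2644 bp from the start of the gene. It carried a pair of RUNX sites, at -40 and 13 bp from the midpoint on the plus strand. HOXB7 was counted for this same peak only through a long transcript that runs across HOXB8 and HOXB9. The canonical transcript of HOXB7 covers 3786 of the 26341 bp of the gene and had no peak within 3 kb. Taking canonical transcripts throughout, 5 of 39 HOX genes (12.8%) had a peak, compared with 17.8% of protein-coding genes. Of the remaining HOXB genes, HOXB8 lay 8185 bp from a peak, HOXB5 12213 bp, HOXB1 15841 bp and HOXB6 16707 bp. HOXB13, which stands apart from the rest of the cluster and is known for its part in the prostate, was farthest at 100812 bp.

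The HOXC cluster spans 53938831 to 54056030 on chromosome 12. Its single peak, 53948869 to 53949402 (534 bp), lay between HOXC13 and HOXC12, group 13 and 12 genes of which HOXC13 is known for hair and nail formation. It began 2325 bp beyond the 3′ end of HOXC13 (ENSG00000123364.5) and so just inside the limit of 3 kb. HOXC12, at 5501 bp, was the closest HOX gene outside that limit. The other HOXC genes lay between 23724 bp (HOXC11) and 83648 bp (HOXC5) from a peak. This peak held the only composite element among the HOX peaks. The composite is the arrangement known from LMO2, TAL1 and GATA complexes in red cells, a CTG followed after 7 or 8 bases by the GATA site. Here CTATCT and CAG are read from the other strand, with 8 bases between them, and the element begins at -82 bp from the midpoint.

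**Figure D2:**
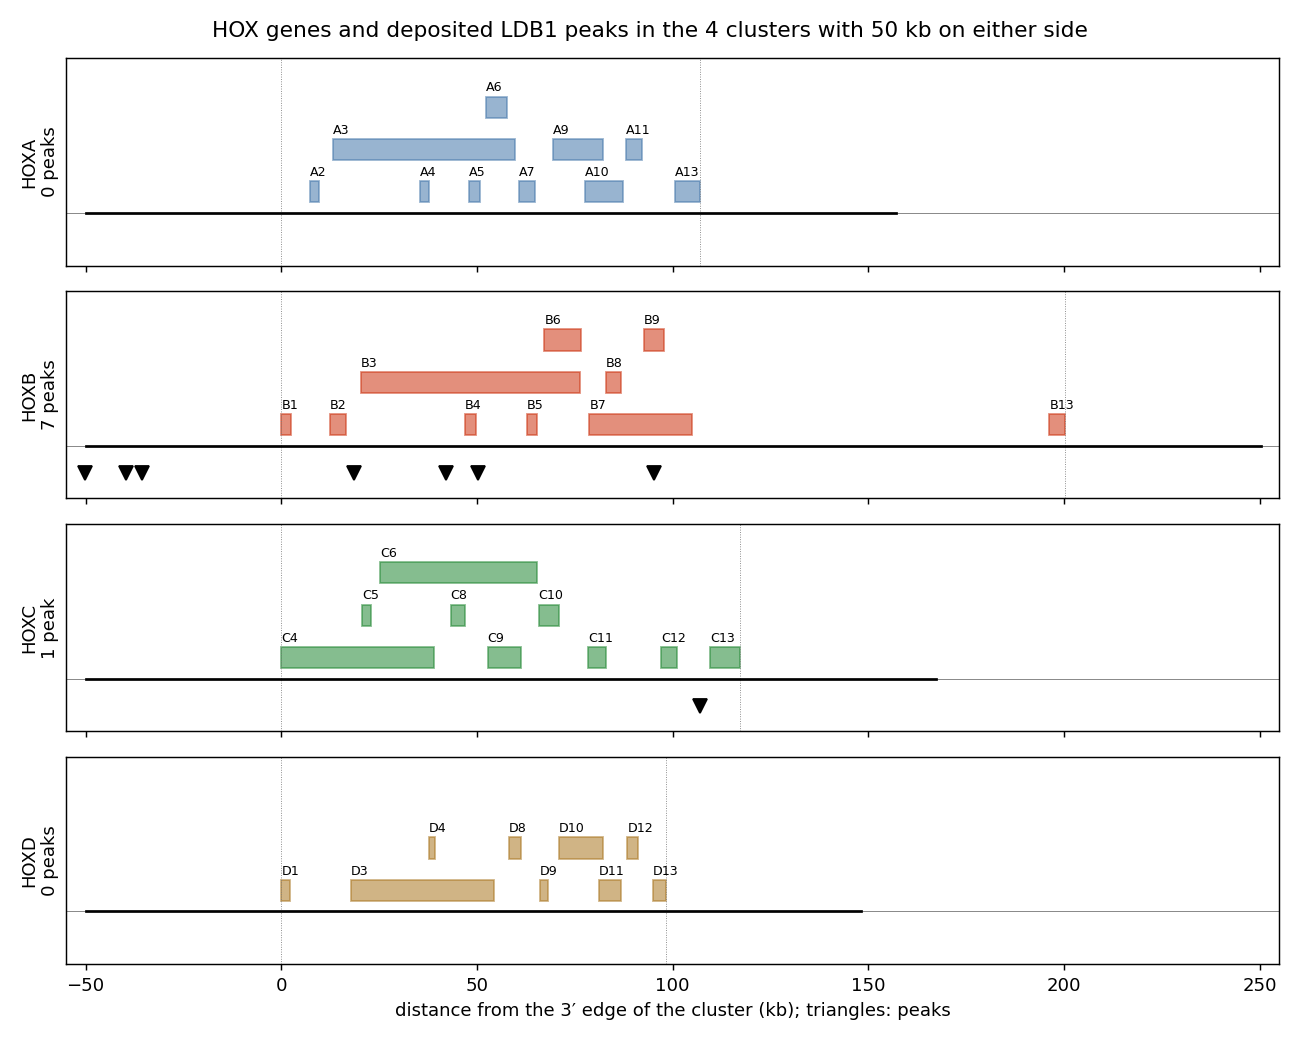
HOX genes (boxes, without those not reported here) and LDB1 peaks (black triangles at the midpoints) in the 4 HOX clusters with 50 kb on either side (black line), drawn in kb from the 3′ edge of each cluster, with that edge on the left. Of the 7 peaks in the HOXB window, 3 lie outside the cluster beside B1 and 4 between B2 and B9, HOXC has 1 peak beside C13, and HOXA and HOXD have none.

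Counted with 50 kb on either side, the clusters held 7 peaks at HOXB, 1 at HOXC and 0 at HOXA and HOXD. The HOXB window thus had 23.3 peaks per Mb (exact Poisson interval 9.37 to 48.0), compared with 7.65 on chromosome 17 and 3.76 in the genome. To set this beside other gene regions, a window of the same length was centred on each of the 20033 protein-coding genes. Of these windows 9.80% held at least 7 peaks, and on chromosome 17 alone 16.4% did. At this length 37.9% of the windows held no peak. For HOXC the density was 4.6 per Mb (0.117 to 25.7), compared with 4.28 on chromosome 12, and 54.2% of the windows of that length held at least 1 peak, with 45.8% holding none. Windows without any peak made up 47.0% at the length of HOXA and 48.0% at the length of HOXD, so an empty window of this size was frequent among gene regions.

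The 3 peaks of the HOXB window outside the cluster all lay on the side of HOXB1, between that gene and SKAP1. They were 270, 396 and 537 bp long and lay 35.6, 39.6 and 49.8 kb from HOXB1. The outermost of them held a pair of GATA sites, 7 and 27 bp to the right of its midpoint, with a RUNX site between them. The innermost held a GATA site and 15 CpG dinucleotides, and the middle one a RUNX site. On the HOXB13 side the next peak was 267 kb away. All 8 HOX peaks were of modest length, 256 to 537 bp, and 61.8% of the peaks in the list were shorter than the longest of them.

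**Figure D3:**
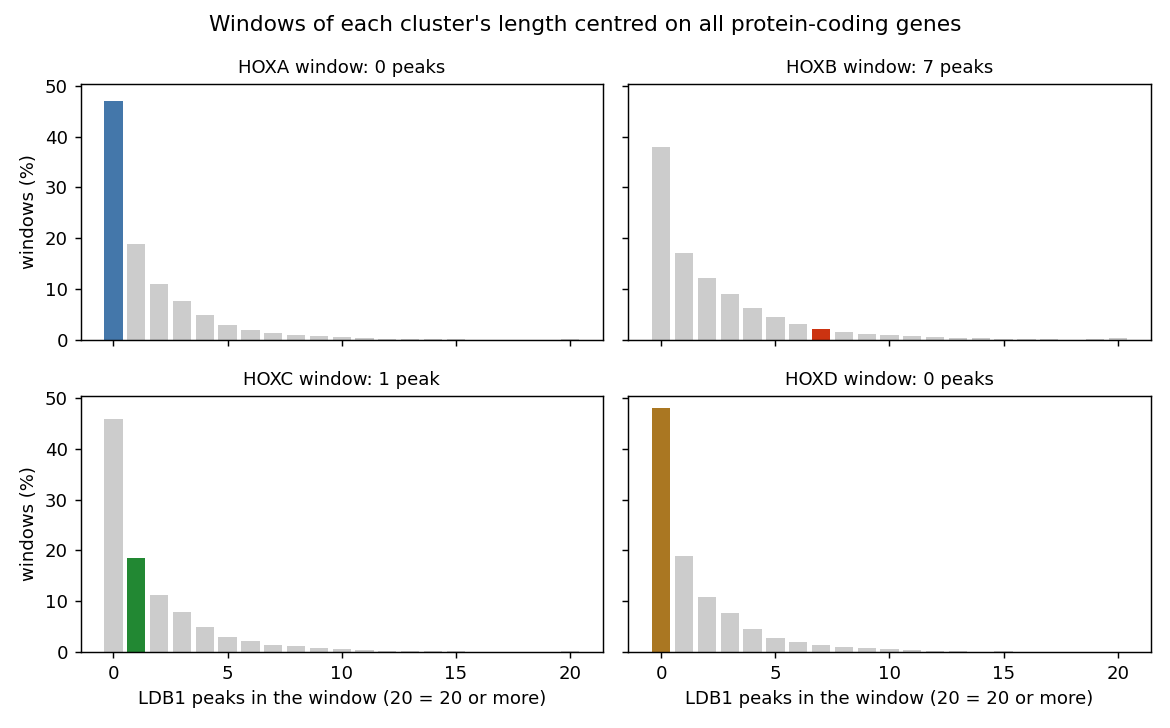
Number of LDB1 peaks (x axis) in windows of each cluster's length with 50 kb on either side, centred on each of 20033 protein-coding genes (y axis, % of windows), with the bar of the cluster's own count coloured. HOXA and HOXD fall in the most frequent class, that of 0 peaks, and HOXB with 7 peaks lies in the upper tail.

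What set HOXA and HOXD apart was the distance to any peak. On chromosome 7, HOXA2 lay 951472 bp from the nearest peak, HOXA9 1013556 bp and HOXA13 1044621 bp. Among protein-coding genes the median distance was 66.9 kb, and 5.95% lay at least as far from a peak as HOXA2. The HOXD genes (176092721 to 176190907 on chromosome 2) lay between 1073843 bp for HOXD1 and 1168806 bp for HOXD13, and 4.96% of protein-coding genes lay at least as far as HOXD1. All HOXA genes had the same nearest peak, and so had all HOXD genes, so the distances within each cluster are not independent. They describe where the clusters lie, beside 0 to 100812 bp for HOXB and 2325 to 83648 bp for HOXC.

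The gap between peaks that contains HOXA ran over 3497953 bp and the one that contains HOXD over 3204474 bp, where the median gap in the list was 30.5 kb. They ranked 149th and 166th in length among 11023 gaps. Genes outside the HOX family shared these gaps. Around HOXA they included the ubiquitously expressed HNRNPA2B1 and CBX3, the adaptor gene SKAP2, JAZF1, CREB5 and the homeobox gene EVX1. The gap held 26 protein-coding genes, of which 11 were the HOXA genes themselves. Around HOXD they included ATF2, MTX2, HNRNPA3 and EVX2, and 9 of the 23 protein-coding genes in that gap were HOXD genes. Gaps at least as long as that of HOXA held 9.17% of all protein-coding genes. The stretches without a peak thus extended well beyond the HOX genes.

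HOXC differed in its surroundings. Within 500 kb of the cluster there were 19 peaks, or 17.0 per Mb (exact Poisson interval 10.2 to 26.6, compared with 4.28 on chromosome 12), and 17 of them lay on the HOXC4 side, the first of them 230 kb beyond it. Of these, 3 had their nearest protein-coding start at NFE2, a factor of red cells and platelets, with a longest peak of 4273 bp, 5 at COPZ1 and 5 at GPR84. Within 500 kb of HOXB there were 9 peaks, or 7.5 per Mb (3.43 to 14.2), so that at this width its density no longer exceeded the 7.65 of chromosome 17. Within 500 kb of HOXA and of HOXD there were 0, which allows up to 3.33 and 3.36 per Mb by the same interval. Chromosome 7 had 3.62 and chromosome 2 had 3.48. The 500 kb width was added after seeing the data, and no windows of this length were centred on other genes. The intervals also treat peaks as independent, whereas 17 of those near HOXC lay on the same side. No depletion or excess was tested.

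**Figure D4:**
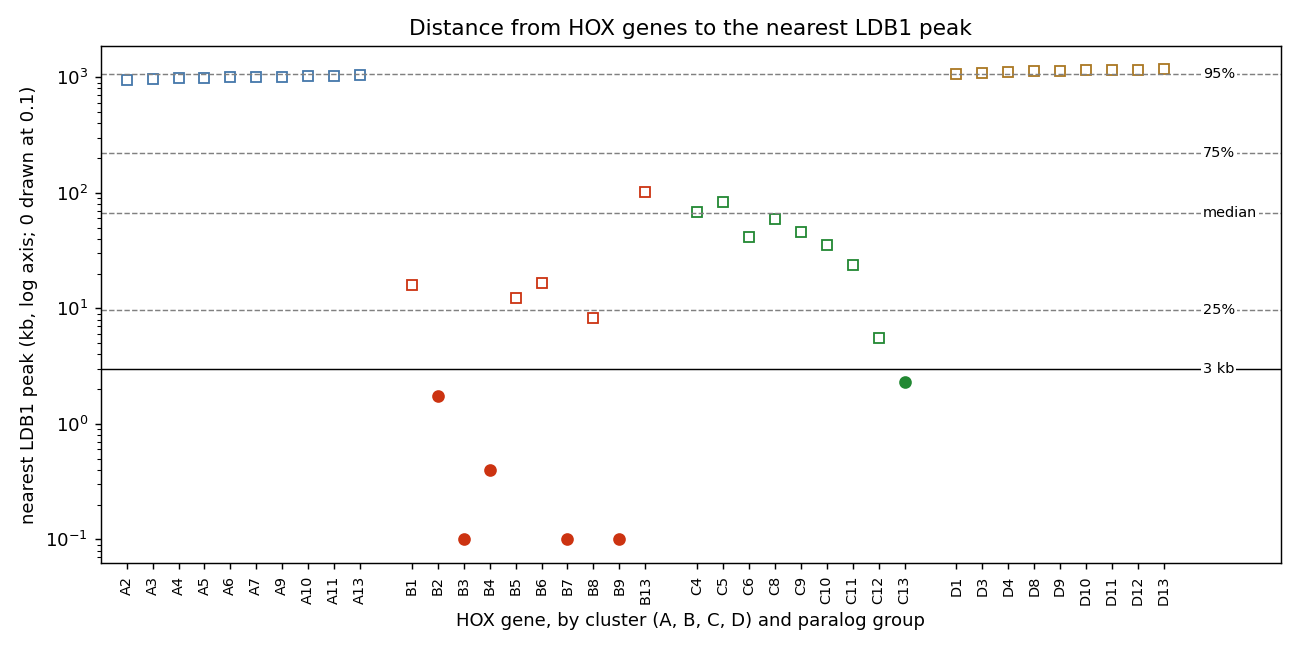
Distance from the HOX genes reported here to the nearest LDB1 peak (y axis, kb, log scale, with 0 drawn at 0.1), ordered by cluster and paralog group; filled circles had a peak within 3 kb and open squares had none. Dashed lines give the quartiles and the 95th percentile of all protein-coding genes. HOXA and HOXD lie close to the line of the 95th percentile (1070 kb), and HOXB and HOXC mostly below the median of 66.9 kb.

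The motifs were then counted over the central 200 bp of all 8 peaks in the cluster windows, against all 11046 peaks. GATA sites occurred in 4 of the 8, and in 47.1% of all peaks. RUNX sites occurred in 3 (20.5% of all peaks), the composite in 1 (11.1%), CAGCTG in 1 (17.1%) and the ETS site (AGGAAGT or CGGAAGT) in 1 (6.19%). The composite contains a GATA site, so the 2 counts overlap. The TAL1 E-box CAGATG was found in 0 of the 8 (19.9% of all peaks) and the AP-1 site TGANTCA in 0 (11.9%). HOX proteins bind DNA with PBX partners, and the joint site TGATNNAT was found in 0 (5.98%), while the MEIS site TGACAG was found in 1 (15.3%). The TAAT core (TAATTA) was found in 1 (2.06%), and the CTCF core (AGGTGGC or AGGGGGC) in 1 (9.12%). Because retinoic acid is a known inducer of HOX genes and NB4 carries the PML-RARA fusion, the half-site of retinoic acid receptors (AGGTCA or AGTTCA) was searched too. It occurred in 0 of the 8 windows (25.2% of all peaks), and its direct repeats with 5 or 2 bases between them also in 0. Over the whole peaks the half-site occurred in 4 of the 8 (52.0% of all peaks). With 8 peaks these counts are a description of the sites present.

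The clusters also hold RNA genes that are not translated. Of 26 lncRNA and 8 miRNA genes lying between the outermost HOX genes, 4 had a peak in the gene or within 3 kb, all of them in HOXB, compared with 9.31% of all lncRNA and miRNA genes (9.73% of lncRNA and 5.11% of miRNA genes). They were HOXB-AS1, HOXB-AS3, the lncRNA ENSG00000257178 and MIR10A. The peaks have no strand, so a gene and its antisense partner share them. Those without a peak included HOTAIR, which acts on distant chromatin and lay 12906 bp from a peak, and HOTAIRM1, a myeloid RNA of the HOXA cluster, at 946765 bp. MIR10A lay 794 bp from the peak upstream of HOXB4, and MIR10B, its relative in HOXD, lay 1114338 bp from a peak. The miR-196 genes have copies in 3 clusters, MIR196A1 in HOXB at 8539 bp from a peak, MIR196A2 in HOXC at 42336 bp and MIR196B in HOXA at 1020598 bp. Their mature sequences (RefSeq, GRCh38.p14) are shown because they are the relatives that fall in clusters with and without peaks, with the seed in capitals.
miR-10a-5p: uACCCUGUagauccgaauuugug
miR-196a-5p: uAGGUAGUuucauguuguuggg
miR-196b-5p: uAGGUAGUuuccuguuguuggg
The miR-196 sequences have the same seed, and that of miR-10a differs.

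The proteins that work with HOX factors were examined in the same way. The TALE homeodomain proteins (MEIS, PBX, PKNOX and TGIF) bind DNA beside HOX factors or compete for their sites, and 2 of 11 of their genes (18.2%, 5.14 to 47.7%) had a peak. PBX2 had a 365 bp peak that lay 2205 bp beyond its 3′ end, and TGIF1 had a 247 bp peak in an intron of the gene, before the start of its canonical transcript. MEIS1, the partner of HOXA9 in leukemia, had none, and its nearest peak was 612766 bp away. The nearest peak was 120684 bp from PBX3, 439424 bp from MEIS2 and 27742 bp from MEIS3.

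Of 15 genes that act upstream of HOX expression, 3 (20%, 7.05 to 45.2%) had a peak. KMT2A, a histone methyltransferase that maintains HOX expression and is rearranged in leukemia, had a 594 bp peak in canonical intron 1, 1141 bp from the start of the gene. DOT1L, the methyltransferase recruited by KMT2A fusions, had a 466 bp peak in intron 1. EED, a Polycomb subunit that helps to silence HOX genes, had a 359 bp peak in an intron, before the start of its canonical transcript. EZH2, SUZ12, BMI1, MEN1, PSIP1, NPM1, NUP98, RARA, CDX1, CDX2 and CDX4 had none, and ASXL1 missed the limit at 3001 bp. LIM homeobox proteins are homeodomain factors that LDB1 joins directly, and 1 of their 12 genes (8.33%, 1.49 to 35.4%) had a peak. It was LHX4, with a peak of 589 bp centred in intron 3 and reaching into a coding exon. A further 4 LIM homeobox genes, LHX1, LHX3, LHX6 and LHX9, had their nearest peak between 4789 and 8870 bp away. The rest of the 12 lay between 21370 bp (LHX2) and 1725063 bp (ISL1) from a peak. The interval of each of these lists included the 19.7% of protein-coding genes.

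Histone genes were taken as another family in tight clusters, and 9 of 73 (12.3%, 6.62 to 21.8%) had a peak, with an interval that overlapped that of the HOX genes over most of its length.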

How the data were processed

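CUT&Tag reads were aligned by the authors to hg38 with Bowtie2 2.4.4, and peaks were called with MACS3 3.0 at a q-value limit on paired-end fragments, per the study's methods. Whether IgG was the control of the peak calling is not given in the sources used here. The deposited file held peak start, end and length in bp for the LDB1 library. Coordinates were read as counted from 1, which fitted the stated length of all 11046 peaks. The IgG library was not analysed here. Some members are counted in the totals, and their own values are not reported here.

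Genes came from GENCODE release 44 without mitochondrial genes and the second copies of pseudoautosomal genes. A gene had a peak when at least 1 base of a peak fell in the gene or within 3 kb, and distances are from gene edge to peak edge. Every member was accounted for, and genes with a peak were named. Motifs were searched on both strands, in 200 bp around the midpoint. Repeated sequence was judged by how often the 31 bases at the middle of a peak occur in hg38. Counting was tested on simulated data. Alternatives were other gene windows, the 5523 longest peaks, midpoints, peaks with a central sequence found once, merged peaks, flanks of 0, 20 and 100 kb and motif windows. Canonical transcripts, flanks of 500 kb, peaks counted once and leaving out HOXB were added after seeing the data. Members and lists were chosen with earlier results of these data known. Tools were SciPy 1.17.1, pandas 2.3.3, numpy 2.4.6, numba 0.67.0 and matplotlib 3.10.9 under Python 3.11.15.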

Additional observations from a re-analysis of the deposited data

How the results depend on the processing

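No paired analysis was possible because there was 1 library per group, with no replicate numbers to pair. The deposited values carry no score, so the 5523 longest peaks stood in for a stricter list. Of the alternative values for 19 results, 62 stayed close and 20 did not, where a share had to stay within its 95% counting interval and a count within 1.5 times its value.

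The share of HOX genes stayed in its interval (7.69 to 20.5%) in every setting except that without HOXB, 3.45%. That setting leaves out most of the genes with a peak. The HOXB count was 3 both in gene bodies only and near gene starts, and the HOXC count was 0 in both and 2 with 10 kb. HOXA and HOXD stayed at 0 genes and 0 peaks in all settings, also with 500 kb. The HOXB window held 4 peaks with no flank and with 20 kb, and 2 of the 5523 longest peaks, and HOXC 19 peaks with 500 kb. TALE genes fell to 0% near gene starts and in the longest peaks, upstream regulators to 6.67% near gene starts, and LIM homeobox genes to 0% near gene starts. Over all protein-coding genes the share also fell, to 6.45% near gene starts and 12.5% with the longest peaks. With 10 kb, 5 of 12 LIM homeobox genes (41.7%) had a peak, compared with 25.1% of protein-coding genes. With so few genes this is a description, and the difference was not tested. Gene bodies only gave 2 RNA genes, a setting that was not counted over all RNA genes. GATA was in 2 of the 8 peaks within 100 bp, and in 28.2% of all peaks. In whole peaks, the TAL1 E-box was in 2 (40.4% of all peaks), the HOX-PBX site in 1 (15.2%) and the retinoic acid receptor half-site in 4 (52.0%). These changes follow from wider or narrower windows or fewer peaks by construction, and other causes were not tested. Unknown depth limits each absence of a peak to the authors' calling.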

Other observations

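Genes of 15 families of developmental factors outside the HOX clusters, mostly homeobox genes, were counted after the HOX values had been seen. Of 77 genes, 5 (6.49%, Wilson interval 2.81 to 14.3%) had a peak in the gene or within 3 kb. This compares with 6 of 39 HOX genes and 19.7% of all protein-coding genes, a share that lay above the interval. The families are a selection without the TALE and LIM homeobox genes above, so 6.49% is not the share of all homeobox genes outside HOX. Such a count also depends on gene length, and the 77 genes were not compared with genes of like length. Those with a peak were DLX2, PAX6, POU2F1, POU2F3 and ALX4. Of these, POU2F1 encodes a broadly expressed octamer-binding factor and PAX6 a factor of the eye and brain. None was found at 14 NKX genes, at 6 genes of the IRX family or at as many of the sine oculis homeobox family. The median distance to the nearest peak was 154 kb over these 77 genes, compared with 66.9 kb over all protein-coding genes. No test was made of these differences.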
